A study of Mus musculus with 53 samples.

Results

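The arcuate nucleus (ARC) of obese and of non-obese *Nnat*+/-p mice was compared in chow-fed males, to ask which transcripts separate heterozygotes that became heavy from those that did not. Members were chosen by their labels alone: male, ARC, chow diet, genotype *Nnat*+/-p, and a labelled weight above 37 g (obese) or below 35 g (non-obese). They are 8 of the 53 libraries of the series, 4 obese and 4 non-obese. The whole series profiled total RNA from 2 hypothalamic nuclei, cut out of brain sections by laser, in wild-type and *Nnat*+/-p mice on chow or on a high-fat diet. The strain was C57BL/6, and brains of males were taken at 13 to 14 weeks of age. *Nnat*+/-p mice carry a null *Nnat* allele from the father in every cell of the body and an intact allele from the mother that is normally silent, so both groups compared share the deletion and neither is a wild type. Obese mice weighed 38.8, 46.5, 41.66 and 41.17 g (replicates 36, 37, 41 and 42). Non-obese libraries were labelled 33.6, 34.3, 34.3 and 27.4 g (replicates 38, 39, 40 and 43). Libraries are called mice below, although replicates 39 and 40 are not known to be 2 mice. Wild-type (*Nnat*+/+) males on chow, replicates 33 and 34, entered the same fit and are given as the control level. Values per library below follow these orders of replicates.

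The ARC senses hormones that report energy stores. Its AgRP/NPY neurons drive feeding and its POMC neurons restrain it, and leptin acts on both. *Nnat* encodes neuronatin, a small protein of the endoplasmic reticulum that is expressed from the paternal allele in neurons and neuroendocrine cells. Astrocytes, microglia and tanycytes of the same region respond to diet and to fat mass. The median eminence, the ventromedial nucleus (VMH) and, further out, the dorsomedial and lateral hypothalamus (DMH and LH) lie next to the dissected area.

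*Nnat* itself checked the labels. It was counted 8, 23, 21 and 12 times in the obese libraries and 5, 4, 8 and 2 times in the non-obese ones, against 873 and 1238 counts in the wild types. As CPM, counts scaled to the library's size with TMM factors, this was 1.22, 4.29, 4.97 and 2.60 in obese, 0.990, 2.46, 1.08 and 0.288 in non-obese, and 251 and 333 in wild-type mice. All 8 heterozygous libraries thus lay far below the wild types. Depth ran from 4447194 to 6676070 counts in the obese libraries and from 1479953 to 7456122 in the non-obese ones. Floors given below cover counting error only, and the counts carry no molecular identifiers. Standard errors (SE) come from the edgeR fit, which also holds the spread between libraries.

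Of the non-obese libraries, 2 stood apart from the others. Replicate 39 had the lowest total, 1479953 counts, and the lowest correlations with its group (0.832 to 0.855 across genes, against 0.91 to 0.927 among replicates 38, 40 and 43). It shares its labelled weight with replicate 40, and only 1 library of the paraventricular nucleus (PVN) carries that weight, so that replicates 39 and 40 are not known to be 2 mice. Their counts differed by 60.9 times the variance that sampling gives (chi-square per degree of freedom over 12325 genes), the highest value among the 12 pairs within the groups. They were kept apart, and each main result was recomputed with their counts summed. Correlations within the obese group ran from 0.895 to 0.950, and no label names a batch. By the same chi-square measure, obese replicates 36 and 37 (18.4) and 41 and 42 (12.1) were closest, and pairs across them gave 37 to 44.3. Mitochondrial genes took 46.6 to 48.8% of counts in replicates 41, 42 and 43, and 29.1 to 37.4% in replicates 36 to 40. What divides these libraries was not tested. Replicate 43, the lightest mouse, held 1.87 CPM of *Nr5a1* (the SF1 factor that marks VMH neurons) where the other 7 libraries held 22.9 to 48.2, and 2.88 CPM of *Fezf1*, also a VMH marker, where the others held 24.4 to 60.2. It also held 2.16 CPM of *Pomc*, and was the highest of the 8 in *Pmch*, *Hcrt*, *Gad1* and *Gad2*.

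Against its defining markers, the tissue held little *Agrp*, and held VMH as well. *Agrp*, the peptide gene that defines the feeding neurons of the ARC, lay between 0 and 6.23 CPM and was not counted in replicates 39 and 43. *Pomc* lay between 2.16 and 124 CPM and *Npy* between 3.74 and 21.8 CPM. The 10 VMH markers summed to between 335 and 946 CPM in the 8 libraries, and the 9 AgRP/NPY genes to 91.4 to 176 CPM. These sums do not give shares of tissue. The VMH list includes *Slc17a6* and *Dlk1*, which also stand on the GABA and glutamate list and the imprinted list. Replicate 43 still summed to 335 CPM at 1.87 CPM of *Nr5a1* and 2.88 CPM of *Fezf1*. *Avp*, which is abundant in the PVN (204 to 474 CPM in the PVN libraries of the same genotype), was at 0 to 4.11 CPM here. In pieces of tissue such as these, fewer cells of a type and less RNA per cell cannot be told apart.

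Across all genes, few differences between obese and non-obese ARC stood out from the spread between libraries. Of 14658 genes tested, 1 was called at an adjusted p under 0.25 (edgeR, quasi-likelihood test, Benjamini-Hochberg adjusted; 0.00682%), and this was *Pmch*, lower in obese mice. At an unadjusted p under 0.05, 273 genes were higher (1.86%) and 350 lower (2.39%) in obese mice, 4.25% of those tested in all. With no filter beyond a total count over 1, 14 of 30250 genes were called. They were *Pmch*, *Gfap*, *Pomc*, *Abcg5*, *Adad2*, *1700069P05Rik*, *Nnat*, *Hdc*, *Clrn3*, *Serpina3n*, *Spata32*, *Sardh*, *Slc5a7* and *Glb1l2*. With a minimum count of 30, or with only the 2 groups compared, 0 were called. The 4 obese libraries lay above all 4 non-obese ones for 198 genes (1.35%) and below them for 176 (1.2%). The median log2 fold change (obese minus non-obese) over all genes was -0.00567. Among the genes of the 32 lists described here, 347 were tested, and 18 of them were higher and 16 lower at an unadjusted p under 0.05 (9.8%). These genes were chosen with earlier results of these data known, so their share is not a test against that of all genes. Every gene other than *Pmch* named below for an unadjusted p had an adjusted p of 0.9989 or above in this fit, and so did not pass. The smallest p that an exact permutation test of 4 against 4 libraries can give is 0.0286.

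**Figure D1:**
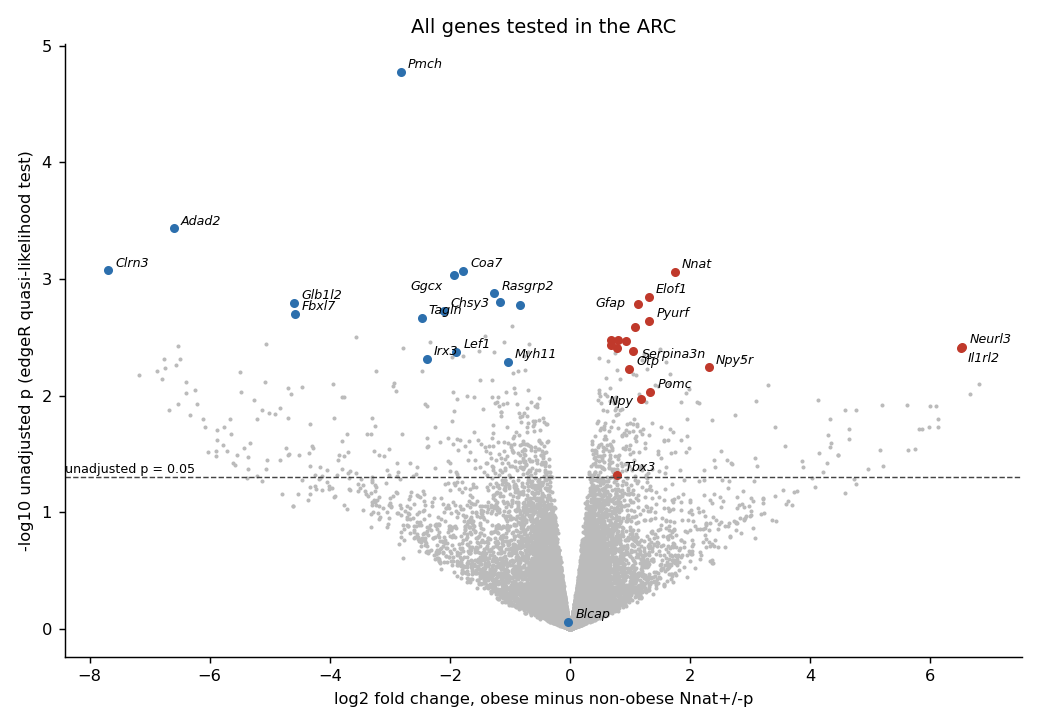
Each dot is 1 of the 14658 genes tested in the ARC, with its log2 fold change (obese minus non-obese *Nnat*+/-p) on the x axis and the -log10 of its unadjusted p from edgeR's quasi-likelihood test on the y axis; coloured dots are named genes (red higher, blue lower in obese mice). *Pmch* stands above all others, and *Clrn3*, *Adad2*, *Neurl3* and *Il1rl2*, at the far left and right, are genes of few counts.

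*Pmch* encodes the precursor of melanin-concentrating hormone, a peptide of lateral hypothalamic neurons that promotes feeding. It was at 8.51, 21.4, 3.55 and 8.88 CPM in obese mice and at 39.4, 59.0, 19.2 and 183 CPM in non-obese mice. The groups overlapped only in that replicate 37 (obese) lay above replicate 40 (non-obese). *Pmch* (ENSMUSG00000035383, GRCm38 chromosome 10 from 88091072 to 88092375) was 7.07-fold lower in obese mice (log2 fold change -2.82, SE 0.53, adjusted p = 0.2448 by edgeR's quasi-likelihood test). Wild-type ARC held 104 and 31.7 CPM. The call sits next to the threshold, and was lost without replicate 36, 39, 41, 42 or 43 (without replicate 43, -1.83 and adjusted p = 0.8211, edgeR). With replicates 39 and 40 summed it was kept (-2.95, adjusted p = 0.1393, edgeR).

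The other markers of the DMH and LH followed the same sign. All 10 were tested, 0 of them had a positive fold change (49.5% of all tested genes did), and the median was -1.73. Besides *Pmch*, *Ppp1r17*, a marker of DMH neurons, gave -1.30 (SE 0.60) with groups that overlapped. *Hcrt*, the orexin precursor of the LH, was at 0.759, 0, 1.66 and 0.216 CPM in obese and 1.39, 0, 0 and 13.5 CPM in non-obese mice, with replicate 43 far above the rest, and without that library it was too low to be tested. The summed level of the list was 30.7 to 72.8 CPM in obese mice and 54.7 to 331 CPM in non-obese mice, with replicate 43 at the top. Without replicate 43, 8 members were tested and 0 were positive, with a median of -0.88. Without replicates 39 and 43, 2 of 7 were positive and the median was -0.32. VMH markers were lowest in replicate 43 (335 CPM summed, 595 to 946 in the other 7), and the part of the dissected area in the *Pmch* result was not tested.

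The AgRP/NPY genes mostly had positive fold changes, but none passed the test over all genes. Of 9 tested, 8 had a positive fold change (median 0.62), and *Npy*, *Npy5r* and *Lepr* had an unadjusted p under 0.05. *Npy*, the orexigenic peptide of AgRP neurons, was at 14.4, 8.20, 21.8 and 14.7 CPM in obese mice and 9.90, 9.21, 3.90 and 3.74 CPM in non-obese mice. Obese replicate 37 lay below non-obese replicates 38 and 39, and the other 3 obese mice lay above all non-obese ones (log2 fold change 1.19, SE 0.43, adjusted p = 0.9989 by edgeR). *Npy5r*, a feeding receptor for NPY, was at 3.80, 5.59, 7.33 and 10.6 CPM against 2.77, 0, 0.942 and 1.30 CPM. Its groups did not overlap (2.31, SE 0.76). *Agrp* was at 6.23, 0.932, 4.49 and 5.84 CPM against 0.396, 0, 3.50 and 0 CPM, with wide error (1.99, SE 1.08). *Npy2r*, the presynaptic autoreceptor, gave 0.62 (SE 0.33), and *Ghsr*, the ghrelin receptor, gave -0.74 (SE 0.53), the one negative value of the list. Replicate 43 was the lowest of the 8 libraries in *Npy* and in the summed list (91.4 CPM), and *Agrp* was at 0 in replicates 39 and 43. How far the signs of this list and of the POMC list rest on these 2 libraries is not given here.

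The value of *Lepr*, the leptin receptor, rested on 1 library. It was at 40.5, 3.73, 6.38 and 2.60 CPM in obese mice and 4.75, 3.07, 4.31 and 6.77 CPM in non-obese mice. Only replicate 36 was high, and without single libraries its fold change ranged from -0.19 to 1.80. The PVN library with the same labelled weight, 38.8 g, also had the highest *Lepr* of its nucleus, 17.6 CPM where the other 6 held 0.609 to 3.11. The 15 genes of the leptin and insulin list, *Lepr* included, had a median of 0.03. *Jak2* (0.03, SE 0.22), *Stat3* (-0.03, SE 0.19) and *Socs3*, the feedback inhibitor of leptin signalling (0.74, SE 0.75), all had overlapping groups.

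POMC neuron genes showed a similar pattern. Of 8 tested, 6 were positive (median 0.45), and *Pomc* and *Nr5a2* had an unadjusted p under 0.05. *Pomc*, the precursor of the anorexigenic melanocortin, was at 103, 124, 65.5 and 95.3 CPM in obese mice and 79.4, 22.1, 48.2 and 2.16 CPM in non-obese mice. Replicates 36, 37 and 42 exceeded every non-obese mouse, and replicate 41 lay below replicate 38 (log2 fold change 1.33, SE 0.47, adjusted p = 0.9989 by edgeR). Without replicate 43 the value was 0.92, and without replicates 39 and 43 it was 0.61. Wild types held 29.3 and 26.6 CPM. *Nr5a2*, a nuclear receptor, was at 3.49, 1.86, 13.2 and 5.84 CPM against 2.18, 0.614, 2.02 and 1.58 CPM, with replicate 37 inside the non-obese range (1.84, SE 0.76). *Cartpt*, the CART peptide precursor, gave 0.28 (SE 0.25), and *Prdm12*, a factor of POMC neuron identity, gave 1.38 (SE 1.18). The summed AgRP/NPY list ran from 113 to 176 CPM in obese and from 91.4 to 128 CPM in non-obese mice. The summed POMC list ran from 169 to 203 CPM in obese and from 87.1 to 164 CPM in non-obese mice.

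**Figure D2:**
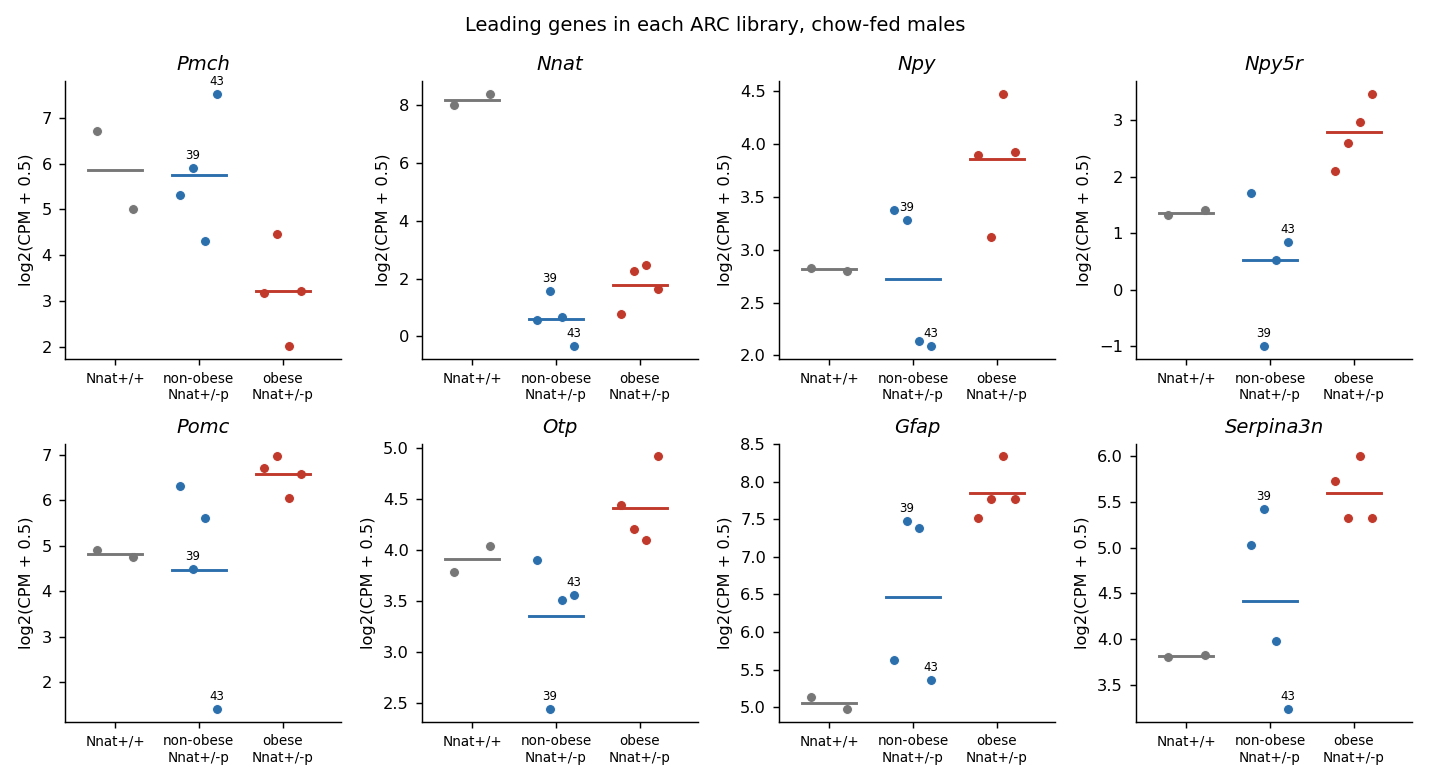
Level of 8 genes in each library as log2(CPM + 0.5); points are libraries, bars are group means of the plotted values, and non-obese replicates 39 and 43 are numbered. *Npy5r*, *Otp* and *Gfap* do not overlap between obese and non-obese mice, whereas *Pmch*, *Nnat*, *Npy*, *Pomc* and *Serpina3n* do.

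Among the other arcuate neurons, signs were mixed. Of 15 genes of KNDy, GHRH and dopamine neurons, 8 were positive and the median was 0.002. *Tac2*, which encodes neurokinin B, was at 2.28, 5.41, 3.31 and 2.60 CPM in obese and 2.97, 24.6, 2.29 and 11.8 CPM in non-obese mice, so its value (-1.54, SE 0.64) rests on replicates 39 and 43. It was -0.75 without replicate 39, -1.44 without replicate 43 and 0.37 without both. Its receptor *Tacr3* gave -1.24 (SE 0.56), and *Pdyn*, the dynorphin precursor, 0.07 (SE 0.23). *Esr1*, the oestrogen receptor alpha, was at 19.6, 20.9, 24.6 and 30.3 CPM against 21.0, 13.5, 10.2 and 13.5 CPM, with only replicate 38 reaching the obese range (0.71, SE 0.29). Of 12 transcription factors tested, 3 were positive (median -0.31), among them *Otp* and *Tbx3* with an unadjusted p under 0.05. Without replicate 43, 6 of the 12 were positive (median 0.01), and without replicates 39 and 43, 8 were (median 0.42). *Otp*, a homeobox factor of AgRP neurons and of neuroendocrine neurons, also stood on the list of PVN and supraoptic markers. It was at 21.1, 17.9, 16.6 and 29.7 CPM in obese and 14.4, 4.91, 10.9 and 11.2 CPM in non-obese mice. These groups did not overlap (0.99, SE 0.33). *Tbx3*, which maintains the identity of arcuate peptide neurons, was at 19.1, 17.1, 23.2 and 20.4 CPM against 14.4, 20.3, 8.75 and 4.90 CPM. The obese values were tight, and replicate 39 lay among them (0.79, SE 0.38; 0.51 without replicate 43). *Isl1* (-0.35, SE 0.36) and *Nkx2-1* (0.27, SE 0.30) overlapped.

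Outside neurons, *Gfap* and *Serpina3n* were the reactive astrocyte genes with an unadjusted p under 0.05. *Gfap*, the intermediate filament of reactive astrocytes, was at 184, 217, 324 and 218 CPM in obese mice and at 49.1, 178, 167 and 40.8 CPM in non-obese mice. All obese mice lay above all non-obese ones, and the latter split into a low pair (replicates 38 and 43) and a pair just below the obese range (replicates 39 and 40). Wild types were lower than all of them, at 34.8 and 30.9 CPM. *Gfap* (ENSMUSG00000020932, GRCm38 chromosome 11 from 102887336 to 102900912) was 2.20-fold higher in obese mice (log2 fold change 1.14, SE 0.32, adjusted p = 0.9989 by edgeR), and it was called by limma voom with sample quality weights (1.59, adjusted p = 0.01858). With each library left out in turn the fold change stayed between 0.86 and 1.46, and without replicates 39 and 43 together it was 1.12.

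*Serpina3n*, a secreted protease inhibitor of reactive astrocytes, was at 52.5, 39.5, 63.4 and 39.6 CPM in obese and 32.1, 42.4, 15.3 and 8.93 CPM in non-obese mice. Only replicate 39 reached the obese range (1.05, SE 0.33). *C4b*, complement C4, named here after its values were seen, was at 29.5, 35.4, 43.5 and 36.1 CPM against 7.13, 52.2, 21.3 and 3.89 CPM, with replicate 39 above every other library (0.89, SE 0.47; 1.73 without replicate 39 and 0.52 without replicate 43). Of the 8 reactive genes tested, 4 were positive with a median of 0.11, and *Vim*, another filament protein, was at -0.58 (SE 0.30). Of the general astrocyte markers, 3 of 12 were positive and the median was -0.12. *Aqp4*, the water channel of astrocyte end-feet, gave 0.55 (SE 0.20) and *Ntsr2*, a neurotensin receptor of astrocytes, -0.41 (SE 0.20). The glutamate transporters *Slc1a2* (-0.15, SE 0.15) and *Slc1a3* (-0.01, SE 0.14) and the enzyme *Aldh1l1* (-0.11, SE 0.30) had overlapping groups.

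The promoter windows of the gene called and of *Gfap* are shown from 250 bases before to 50 after the start site (RefSeq, GRCm38.p6), with the letters TTCNNNGAA, the core that STAT factors bind, in capitals. These letters read the same on both strands and stood in 8.3% of 32851 windows of this length. *Gfap* lies on the minus strand at chr11:102897151-102897450 and *Pmch* on the plus strand at chr10:88090822-88091121, and each window held 1 match, which describes the letters and not a bound site.
Gfap: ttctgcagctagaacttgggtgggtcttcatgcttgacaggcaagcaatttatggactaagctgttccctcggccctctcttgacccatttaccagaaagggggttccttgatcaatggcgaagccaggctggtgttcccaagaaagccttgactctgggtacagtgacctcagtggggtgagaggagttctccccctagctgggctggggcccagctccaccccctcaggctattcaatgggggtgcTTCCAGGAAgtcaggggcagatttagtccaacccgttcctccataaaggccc
Pmch: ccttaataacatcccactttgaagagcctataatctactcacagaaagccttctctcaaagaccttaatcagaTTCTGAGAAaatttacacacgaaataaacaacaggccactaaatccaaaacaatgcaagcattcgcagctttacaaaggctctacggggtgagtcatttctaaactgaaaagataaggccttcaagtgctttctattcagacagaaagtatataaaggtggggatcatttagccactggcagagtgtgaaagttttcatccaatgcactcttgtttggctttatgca

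Of 12 microglial markers 7 were positive, with a median of 0.21 (6 and -0.03 without replicates 39 and 43). *Ctss*, the lysosomal protease cathepsin S, was at 74.6, 70.1, 78.8 and 73.2 CPM against 51.9, 39.9, 75.4 and 37.9 CPM. Replicate 40 alone lay inside the obese range (0.52, SE 0.21). *P2ry12*, a purinergic receptor of resting microglia, gave 0.77 (SE 0.40), and *Cx3cr1*, the fractalkine receptor, -0.09 (SE 0.31). The cytokines *Tnf*, *Il1b*, *Il6* and *Ccl2* were too low to be tested, with *Ccl2* at 0 in all 8 libraries.

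Vessel genes mostly had negative fold changes, though none passed the test over all genes. Of 15 endothelial and mural markers, 2 were positive (median -0.34), where 49.5% of all tested genes were. The 3 with an unadjusted p under 0.05 were lower in obese mice and did not overlap between groups. Over all genes, 2.39% were lower at this p, and 1.2% had all obese libraries below all non-obese ones. Genes picked for a small p tend not to overlap. *Tagln*, a smooth muscle protein, was at 5.01, 1.30, 0.236 and 0.216 CPM in obese and 10.5, 10.4, 10.5 and 8.35 CPM in non-obese mice. *Myh11*, smooth muscle myosin, was at 7.14, 15.5, 6.86 and 19.1 CPM against 26.5, 21.5, 29.2 and 21.7 CPM. *Pecam1*, an endothelial adhesion protein, was at 7.14, 8.20, 3.07 and 6.28 CPM against 10.9, 9.21, 15.1 and 11.5 CPM. The log2 fold changes were -2.47 (SE 0.72), -1.04 (SE 0.34) and -0.92 (SE 0.42), all by edgeR. The tight junction gene *Cldn5* (-0.94, SE 0.60) and the VEGF receptor *Flt1* (-0.12, SE 0.22) overlapped. The whole list summed to 149 to 205 CPM in obese and 196 to 235 CPM in non-obese mice. Wild types, at 4.88 and 1.61 CPM of *Tagln*, lay within the obese range, and their *Pecam1*, at 9.19 and 5.38 CPM, was below that of every non-obese library. For *Myh11* they held 24.7 CPM, within the non-obese range, and 12.9 CPM, within the obese one.

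**Figure D3:**
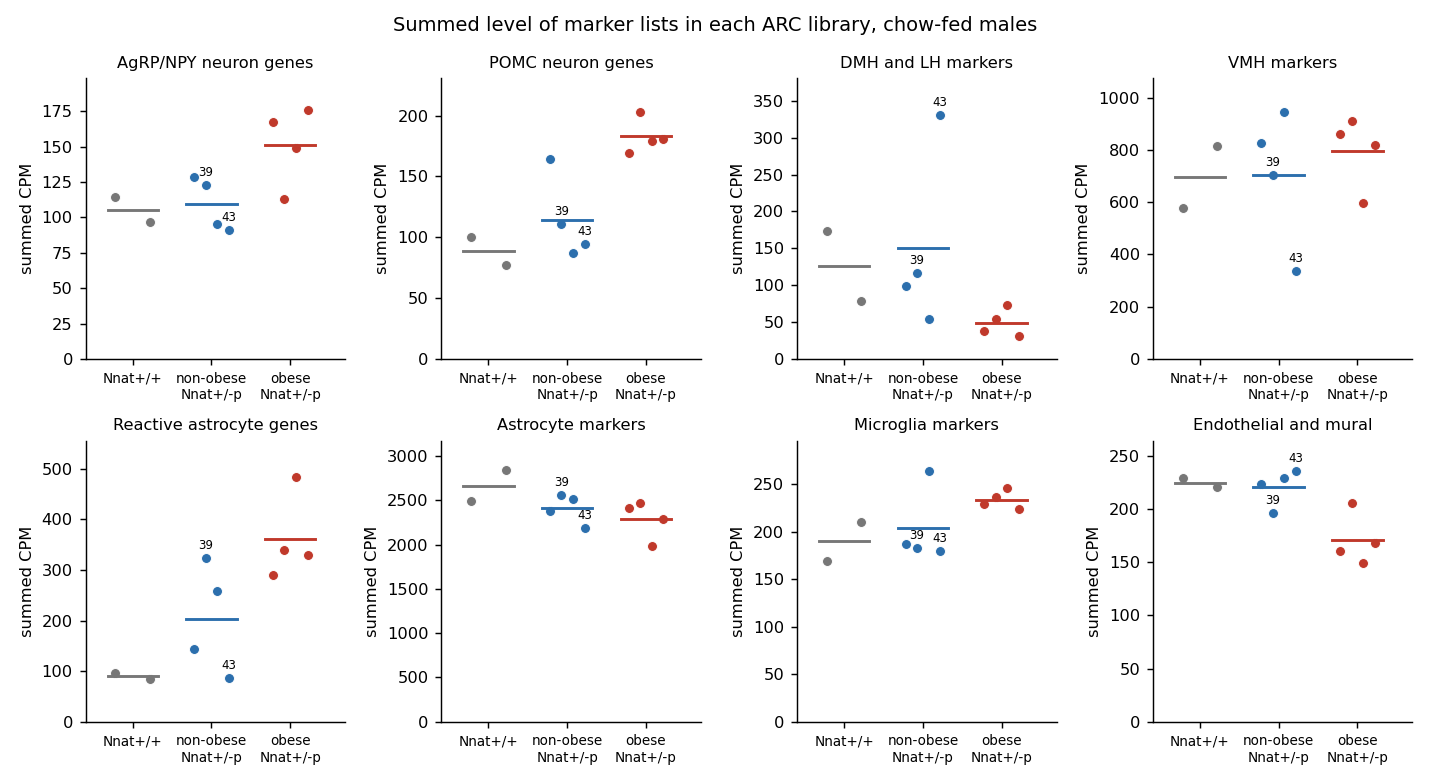
Summed CPM of 8 marker lists in each library (y axes start at 0; bars are group means; replicates 39 and 43 are numbered). The POMC list does not overlap between obese and non-obese mice, and replicate 43 is the highest of all libraries in the DMH and LH list and the lowest in the VMH list.

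Among all genes, those with the smallest p are given next. *Nnat*, at the residual level given above, had the smallest p of the genes higher in obese mice (log2 fold change 1.74, SE 0.46, adjusted p = 0.9989 by edgeR). It rests on 2 to 23 counts per library and the groups overlapped. *Blcap*, the gene on the opposite strand that spans *Nnat*, gave -0.03 (SE 0.19). *Elof1*, a transcription elongation factor, was at 15.5, 12.7, 18.7 and 21.2 CPM in obese and 7.33, 5.53, 4.04 and 10.1 CPM in non-obese mice (1.31, SE 0.36). Wild types, at 15.2 and 10.5 CPM, also lay above all non-obese mice. *Lyst*, a regulator of lysosomal trafficking, was at 50.3, 42.7, 37.1 and 46.8 CPM against 26.9, 22.1, 31.4 and 29.1 CPM, and wild types (38.8 and 43.0 CPM) lay within the obese range.

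Of the others higher in obese mice, 6 gave log2 fold changes between 0.69 and 1.31. They were *Pyurf* (1.31, SE 0.39), *Uap1*, an enzyme of UDP-N-acetylglucosamine synthesis (1.08, SE 0.32), *Tbc1d32*, a ciliary protein (0.93, SE 0.29), *Nectin3*, a cell adhesion protein (0.79, SE 0.24), the ribosomal protein gene *Rps14* (0.78, SE 0.24) and *Zfp275*, a zinc finger gene (0.69, SE 0.21). *Rps14* has processed copies in the genome that can share its reads, and it alone of the 6 overlapped between groups. *Neurl3*, a ubiquitin ligase, and *Il1rl2*, the interleukin-36 receptor, had 0 counts in all 4 non-obese libraries. In the obese ones *Neurl3* had 1, 4, 23 and 14 counts. Pooled, this was at least 14.2-fold above a floor of 3 counts over the non-obese group, or at least 8.05-fold without replicate 41. Replicate 36 by itself, at 0.152 CPM, lay near that floor (0.142 CPM), and wild types held 1.44 and 1.08 CPM. *Neurl3* passed the count filter only through the obese group, so its fold does not test a difference. *Il1rl2* had 8, 10, 1 and 27 counts, pooled at least 15.5-fold above the same floor, or at least 8.25-fold without replicate 42. Its replicate 41 held 0.236 CPM, and wild types held 2.59 and 0.269 CPM.

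Among the genes of smallest p with negative fold changes, none but *Pmch* passed. *Ggcx*, the vitamin K-dependent carboxylase, was at 3.19, 1.49, 2.84 and 2.17 CPM in obese and 7.92, 7.98, 8.75 and 12.4 CPM in non-obese mice. *Coa7*, an assembly factor of cytochrome oxidase, was at 3.19, 3.17, 4.49 and 2.17 CPM against 9.11, 16.0, 13.7 and 6.77 CPM. *G6pc3*, a glucose-6-phosphatase, was at 8.96, 7.08, 7.80 and 6.28 CPM against 12.3, 16.6, 20.5 and 18.6 CPM. None of these 3 overlapped, and their fold changes were -1.93 (SE 0.51), -1.78 (SE 0.47) and -1.17 (SE 0.33) by edgeR. *Rasgrp2*, an exchange factor for Rap1 (-1.26, SE 0.35), *Ap3b1*, a subunit of the AP-3 adaptor (-0.84, SE 0.24), and *Chsy3*, a chondroitin sulphate synthase (-2.10, SE 0.60), did not overlap either.

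A last set of low genes was highest in replicate 39. *Adad2*, *Glb1l2* and *Fbxl7* were at 26.4, 20.3 and 12.3 CPM in that library, and at no more than 3.50 CPM in any of the other 7. Without that library, non-obese levels were 0.594 to 2.83 CPM of *Adad2* (0 to 0.236 in obese mice), 1.15 to 2.69 of *Fbxl7* (0 to 0.373) and 0.396 to 3.50 of *Glb1l2* (0 to 0.559), so that only *Glb1l2* overlapped. *Clrn3* had 0 counts in all 4 obese libraries and 0, 28, 16 and 17 counts in the non-obese ones. Pooled, it was at least 20.1-fold higher in the non-obese group against 3 counts over the obese group, or at least 11.8-fold without replicate 39. *Clrn3* passed the count filter only through the non-obese group, so this fold does not test a difference. *Folr1*, a folate receptor on the choroid plexus list, was likewise at 0 in the obese group. It was at 2.57, 9.21, 0 and 0.720 CPM in the non-obese one. *Glb1l2* also passed the count filter only through the non-obese group, so its fold does not test a difference. Outside that group, *Adad2* reached the filter's level only in wild-type replicate 33 (8 counts), so its fold is not a test either.

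Lists tied to the known setting of neuronatin are given beside the 4.25% of all genes with an unadjusted p under 0.05. No gene of neuropeptide processing had an unadjusted p under 0.05 (12 tested, median -0.08): *Pcsk1* gave 0.13 (SE 0.21), *Pcsk2* -0.06 (SE 0.18) and *Cpe* -0.15 (SE 0.13). Nor did any of 16 chaperones and ER stress genes (median 0.03), with *Hspa5*, the chaperone BiP, at 0.02 (SE 0.16). Of 16 genes of calcium handling, the ryanodine receptors *Ryr1* (-1.29, SE 0.60) and *Ryr2* (0.34, SE 0.16) had an unadjusted p under 0.05, and the ER calcium pump gene *Atp2a2* gave 0.01 (SE 0.14). Of 28 imprinted genes only *Nnat* did (median 0.02), with *Peg3* at -0.05 (SE 0.14). Of 14 immediate early genes 10 were positive (median 0.31), with *Btg2* at 1.19 (SE 0.56) and *Fos* at 0.90 (SE 0.49). *Insig1*, a feedback regulator of sterol synthesis, was the only one of 18 lipid genes with an unadjusted p under 0.05. It was at 37.5, 23.7, 26.7 and 22.3 CPM against 18.2, 13.5, 20.7 and 13.4 CPM, without overlap (0.73, SE 0.27). Wild types, at 28.7 and 24.7 CPM, lay within the obese range.

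Lists of neighbouring nuclei and other cells are given for the same contrast. Of 10 VMH markers 7 were positive with a median of 0.18 and none had an unadjusted p under 0.05 (without replicates 39 and 43, 1 was positive and the median was -0.19). *Irx3*, a homeobox gene on the premammillary list, was at 1.67, 2.42, 0.709 and 0.216 CPM in obese and 5.54, 10.4, 8.48 and 3.17 CPM in non-obese mice (-2.39, SE 0.77). *Lef1* (-1.90, SE 0.60) and *Tcf7l2* (-0.79, SE 0.35), Wnt pathway factors of thalamic neurons, had negative values, with replicates 39 and 43 the highest of *Lef1* (-0.85 without both) and replicate 39 the highest of *Tcf7l2* (-0.51 without it). *Slc32a1*, the vesicular GABA transporter, gave -0.73 (SE 0.34), with replicate 43 at 70.7 CPM and the other 7 at 13.7 to 35.0 (-0.20 without replicate 43, and 0.02 without replicates 39 and 43). Single genes of other lists with an unadjusted p under 0.05 were *Rorb* (-0.58, SE 0.28), the noncoding *Neat1* (-1.59, SE 0.71, with replicate 39 at 29.5 CPM; -0.44 without it) and the erythroid *Alas2* (2.69, SE 1.22, with replicates 41 and 42 at 9.46 and 10.4 CPM). *Avp*, on the list of PVN and supraoptic markers with *Otp*, also had an unadjusted p under 0.05 (4.47, SE 1.97). It was at 0.911, 3.36, 0 and 4.11 CPM in obese and 0, 0.614, 0 and 0 CPM in non-obese mice. *Avp* passed the count filter only through the obese group, so its fold does not test a difference. Myelin, tanycyte, leptomeningeal, pituitary and steroid response lists and the mitochondrially encoded RNAs had no gene with an unadjusted p under 0.05. Their medians were 0.001, -0.09 (0.30 without replicates 39 and 43), -0.24, -0.49, -0.14 and 0.07.

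**Figure D4:**
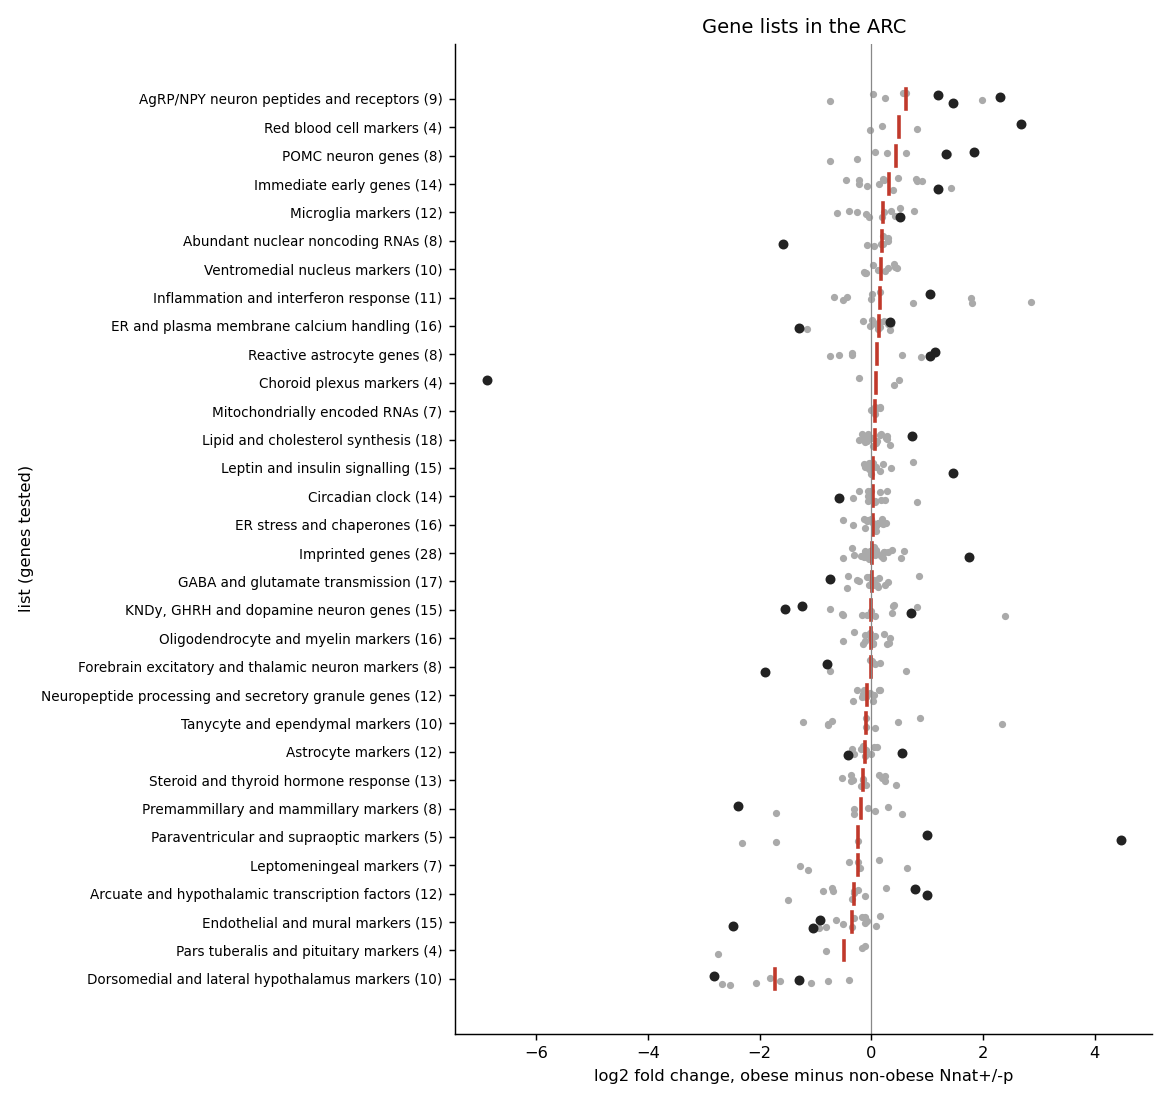
Log2 fold change (obese minus non-obese) of each tested gene in 32 lists, ordered by the list median (red bar); black dots have an unadjusted p under 0.05 by edgeR's quasi-likelihood test, and the number tested is in brackets. The DMH and LH markers are the only list with every member below 0 among lists of 5 or more tested genes, and AgRP/NPY genes have the highest median.

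The PVN of mice of the same labelled weights (4 obese and 3 non-obese libraries) was compared by the same contrast. No gene of 15618 was called by edgeR (0%); 131 were higher (0.839%) and 129 lower (0.826%) at an unadjusted p under 0.05, and DESeq2 called 1. As the labelled weights are those of the ARC libraries, the PVN libraries are not known to come from other mice and are not an independent repeat. *Gfap* was also higher there without overlap, at 124, 191, 99.4 and 122 CPM in obese and 64.0, 69.1 and 32.3 CPM in non-obese PVN (log2 fold change 1.29, SE 0.31, adjusted p = 1 by edgeR). *C4b* gave 1.56 (SE 0.56), at 19.5, 30.2, 36.4 and 22.2 CPM against 11.0, 6.32 and 9.94 CPM. *Serpina3n* had the opposite sign there (-0.81, SE 0.59). *Pomc* in the PVN was at 0.337 to 13.1 CPM and *Pmch* at 0 in all but 1 library.

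The difference between the nuclei was tested as an interaction over both tables. edgeR called 0 of 16100 genes (0%). At an unadjusted p under 0.05 there were 513 (3.19%). *Gfap* gave -0.16 (SE 0.47; 0.32 with labelled weight as a block), so a difference between its values in ARC and PVN was not detected. The smallest p among positive values was that of *Avp* (4.63, SE 1.05, adjusted p = 1 by edgeR), which in the ARC is a matter of 0 to 4.11 CPM. With labelled weight as a block, which pairs the ARC and PVN libraries of 1 weight and puts replicates 39 and 40 in the same block, 2 genes (0.0124%) were called. They were *Avp* (4.41, SE 0.86, adjusted p = 0.04095 by edgeR) and *Pomc* (3.33, SE 0.61, adjusted p = 0.02384 by edgeR), which without the block gave 2.71 (SE 0.87) and was not called. Both calls were kept without replicate 39 and lost without replicate 43, where *Pomc* gave 2.53 (adjusted p = 0.6354) and *Avp* 3.88 (adjusted p = 0.6499, edgeR with the block). *Pomc* was positive in the ARC contrast and negative in the PVN one (-1.34, SE 0.97). In the test without the block *Avp* was followed by the noncoding *1700028E10Rik* (11.67, SE 3.01), at 4.26 CPM or less in the ARC, and by the ubiquitin ligase gene *Rnf185* (3.04, SE 0.86), which was at 13.5, 6.90, 10.4 and 15.2 CPM against 5.54, 6.14, 6.46 and 4.03 CPM in the ARC. Among negative values, *Chsy3* (-4.18, SE 1.12) was lower in obese ARC and at 10.8, 8.16, 6.07 and 4.55 CPM against 2.28, 0.843 and 2.03 CPM in the PVN. *Tmem127* (-1.41, SE 0.39), a membrane protein of endosomes, and *Osbp2* (-3.97, SE 1.12), an oxysterol-binding protein, came next, and *Osbp2* rested on 1 PVN library at 742 CPM. *Myh11* and *Pecam1*, lower in obese ARC, had the opposite sign in the PVN (0.98, SE 0.51, and 0.95, SE 0.47), with differences between nuclei of -2.04 (SE 0.65) and -1.88 (SE 0.61) by edgeR, neither called.

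**Figure D5:**
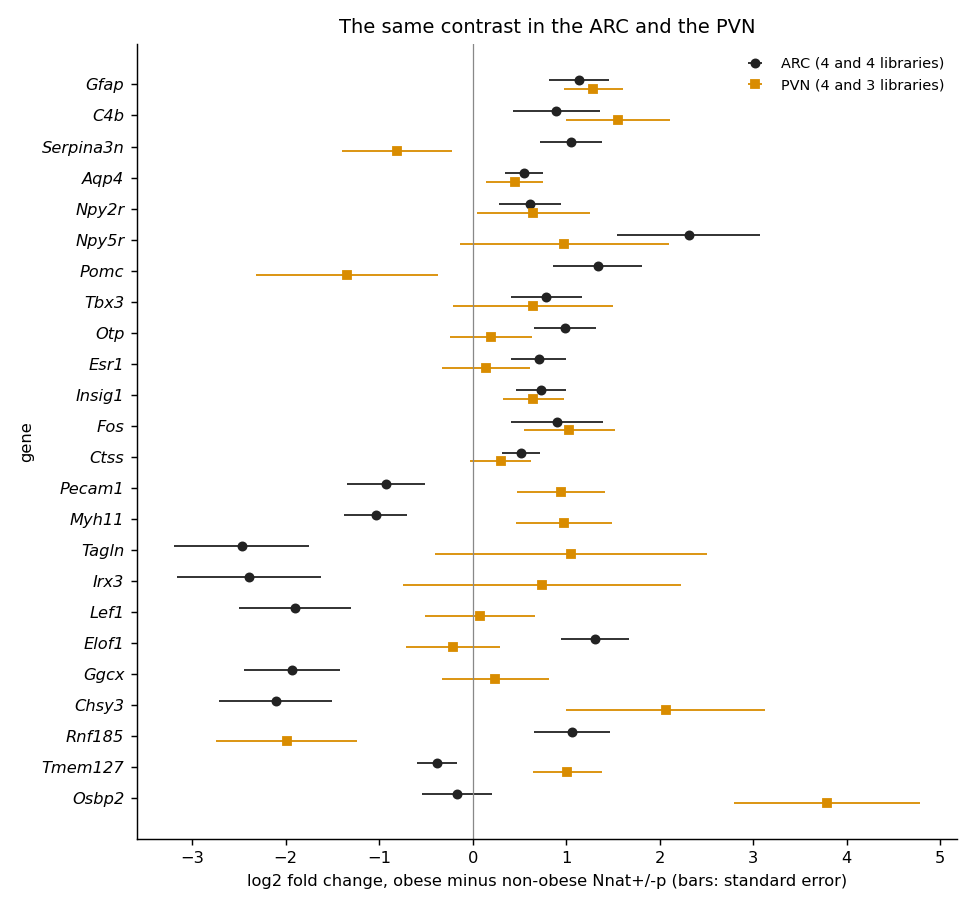
Log2 fold change (obese minus non-obese *Nnat*+/-p) with its standard error for 24 genes in the ARC (black circles) and the PVN (orange squares). *Gfap* and *C4b* are higher in obese mice in both nuclei, whereas *Serpina3n*, *Pomc*, *Myh11*, *Pecam1* and *Chsy3* have opposite signs.

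Scaled together with the high-fat-diet groups of the same table, the leading genes can be placed beside diet. *Gfap* ran from 64.5 to 216 CPM in *Nnat*+/-p and from 47.1 to 211 CPM in *Nnat*+/+ males on the high-fat diet, overlapping both chow groups (171 to 298 CPM in obese and 38.0 to 162 CPM in non-obese mice). *Pmch* ran from 0 to 15.0 CPM and from 0 to 36.8 CPM on the high-fat diet, against 3.27 to 20.1 CPM in obese and 17.8 to 171 CPM in non-obese mice on chow. *Pomc* reached 103 to 202 CPM in *Nnat*+/-p and 26.4 to 349 CPM in *Nnat*+/+ mice on the high-fat diet, against 60.4 to 116 CPM in obese and 2.01 to 74.1 CPM in non-obese mice on chow. These levels are given as a description, and diet was not compared here.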

How the data were processed

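Laser-captured ARC and PVN were sequenced as total RNA by the study, from low input with a stranded kit. Per gene, the authors deposited raw read counts (whole numbers, not normalized) for 53379 Ensembl genes, of which 53274 matched a GENCODE symbol. The submitters' processing notes name STAR 2.5.0a and GRCm38; counting tool, annotation release and strand setting are not given in the sources used here. As the strand setting of the counting is unknown, reads of overlapping genes (*Nnat* and *Blcap*, *Pmch* and *Parpbp*) cannot be told apart.

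Groups came from labelled genotype, diet, nucleus and weight. Replicate 35 (wild type, under 25% of the table's median total) was left out, and replicate 32, whose label and table name different nuclei, was not used. Counts of the obese, non-obese and wild-type groups were fitted together in R 4.3.3 with edgeR 4.0.16 (filterByExpr, minimum count 10; TMM; quasi-likelihood test, Benjamini-Hochberg adjustment over all tested genes, calls under 0.25, the study's threshold). The PVN was fitted alike, and the interaction used the *Nnat*+/-p libraries of both nuclei, without a block and, as an alternative, with labelled weight as the block. No label says that samples are separate mice in every case, so p-values measure the spread between these libraries. Lists were described by counts and medians, without a set test. Scripts were tested on simulated data.

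The gene lists and their genes were chosen with earlier results of these data known. Named genes are *Nnat*, *Blcap*, *Npy*, *Tbx3* and *Gfap*, the 12 genes of smallest p in each direction, list genes with an unadjusted p under 0.05, the first 4 of each list where a result turns on them, and the 3 of smallest p in each direction between nuclei; others are said to be so. *Kiss1* was not analysed here. Alternatives were DESeq2 1.42.0, limma 3.58.1 voom with quality weights, RLE factors, other filters, other sets of libraries, weight as a number, replicates 39 and 40 summed and each replicate left out.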

Additional observations from a re-analysis of the deposited data

Results flagged for a closer look

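Of 134 groups of 4 libraries checked, 12 held a library farther from the others than Dixon's 95% value allows, and chance gives about 1 in 20. Replicate 39 of the non-obese group stood out in 5 genes. It held 26.41 CPM of *Adad2* (the other 3 held 0.594 to 2.827), 17.2 of *Clrn3* (0 to 2.448), 20.27 of *Glb1l2* (0.396 to 3.50) and 12.28 of *Fbxl7* (1.152 to 2.692). The fifth gene was *Avp*, with 1 count (0.6141 CPM) against 0 in the other 3. Where the other 3 are at 0, any single count is flagged. Depth in replicate 39 was such that 3 counts equal 2.03 CPM.

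Among the other non-obese libraries, replicate 43 was low in *Tagln* (8.352 CPM against 10.44 to 10.50) and in the summed circadian clock genes (496.7 CPM against 554.6 to 560.9). Replicate 40 was high in the summed microglial markers (263.5 CPM against 179.9 to 186.5). Replicate 38 held 1 count (0.198 CPM) of *1700028E10Rik*, which was at 0 in the other 3. In the obese group, replicate 36 was low in *Rasgrp2* (4.101 CPM against 9.877 to 10.40) and replicate 42 was low in *Chsy3* (0.433 CPM against 1.892 to 2.05). Replicate 41 held 1 count (0.2365 CPM) of *Adad2*, which was at 0 in the other 3.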

How the results depend on the processing

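*Pmch* was the 1 gene called in the ARC, and 0 were called with RLE factors, a minimum count of 30, only the 2 groups compared, all male ARC groups, all labelled chow-fed ARC libraries, weight as a number or an adjusted p under 0.05. Every gene with a total count over 1 gave 14 calls. DESeq2 and limma voom called 1 gene each, *Clrn3* and *Gfap*. Leaving out single libraries gave 0 to 1 calls, with 0 without replicate 36, 39, 41, 42 or 43. With replicates 39 and 43 left out together, or 39 and 40 summed and 43 left out, both added after seeing the data, 0 genes were called. The cause was not tested. At an unadjusted p under 0.05, 273 genes were higher in obese mice, against 659 with every gene, 445 with all male groups, 59 with all labelled libraries, 146 for weight and 427 without replicates 39 and 43. The 350 lower genes became 1082 with every gene, 224 with 2 groups, 95 with all labelled libraries and 163 for weight. Without single libraries these counts ranged from 187 to 416 and from 245 to 530, the highest without wild-type replicate 34, which leaves 1 wild type and more genes tested. Under 0.01, the 108 genes became 180 with DESeq2, 68 with voom, 301 with every gene, 68 with a minimum count of 30, 57 with 2 groups, 187 with all male groups, 19 with all labelled libraries, 47 for weight and 64 (without replicate 42) to 166 (without replicate 43) in the single omissions. In the PVN, DESeq2 called 1 gene, and the 260 genes under 0.05 ranged from 260 to 397 (394 without replicate 20, 397 without 22). Between nuclei, 0 genes were called without a block and 2, *Pomc* and *Avp*, with labelled weight as a block. With the block and without replicate 39 there were 2 calls, and without replicate 43 there were 0, both added after seeing the data.

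*Blcap* turned positive for weight (0.048) and without replicates 36, 38 or 40 (0.039, 0.060 and 0.088), in a range of -0.16 to 0.088. *Osbp2* in the ARC turned positive for weight (0.18), and ranged from -0.39 to 0.34 without single libraries, the highest without replicate 40. The difference between nuclei turned positive for *Gfap* with the weight block (0.32; 0.39 without replicate 39 and 0.25 without 43), with replicates 39 and 40 summed (0.13) and without replicate 39 (0.14), in a range of -0.44 to 0.39. With the block, that of *Blcap* turned negative without replicate 39 (-0.038) or 43 (-0.082), and that of *Zfp275* without replicate 43 (-0.0025). That of *Tbx3* ranged from -0.17 (without replicate 43) to 0.41 (without replicate 39), and was 0.50 to 0.84 with the block. Of the other values of single genes, 639 in the ARC and 173 between nuclei kept direction and side of the threshold, 7 and 2 (*Avp* with the weight block) passed it newly, and 15 in the ARC no longer did. Without TMM factors, 7 of 32 summed lists moved by more than the spread between libraries. No paired analysis was possible because obese and non-obese mice share no replicate number; between nuclei, labelled weight served as the block. At the depth of replicate 39, 3 counts equal 2.03 CPM.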
